A study of Mus musculus with 10 samples.

Results

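In RNA of CD11b+ Ly-6G+ blood cells from mice that carried no tumour, the calgranulin gene S100a9 was the most abundant transcript per length, and 32 genes, hemoglobin genes among them, held 50% of the summed RPKM. The data described here are the 2 sham libraries, sham replicate 1 and sham replicate 2, out of 10 libraries in the series. They were chosen by their label and not by a cut on a measured value, though with earlier results of these data known. The cells were CD11b+ Ly-6G+ cells sorted from peripheral blood of BALB/c nu/nu mice, an athymic strain whose nude mutation leaves it with few mature T cells. Sham mice had received vehicle in the kidney and blood was collected at day 14, with no further treatment recorded. The other groups received human clear cell renal carcinoma cells in place of vehicle and are not compared here. The labels give neither the age nor the sex of the mice. They do not say whether the libraries came from separate animals or from pooled blood, so the spread between the libraries may be technical. With 2 libraries of a single group, no test between conditions could be made, and every value below is a description.

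Neutrophils are short-lived phagocytes that are made in the bone marrow and released into the blood as mature, non-dividing cells. During maturation they fill several kinds of granule in sequence, first azurophil granules, then specific granules, then gelatinase granules, and the genes for each set of proteins are switched off once that stage has passed. In the blood they carry receptors for chemoattractants and microbes, a ready NADPH oxidase and large stores of the calcium-binding proteins S100a8 and S100a9.

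The deposited values were RPKM, reads scaled by the length of the gene model in kilobases and by the total of the library, so levels of different genes are comparable per length. Totals recovered from the values were 15490915 reads in replicate 1 and 14319998 in replicate 2. For a gene model of 1 kb a single read equalled 0.0646 RPKM in replicate 1 and 0.0698 in replicate 2, and the limit that 0 reads allow, taken as 3 reads in 1 kb, was 0.194 and 0.209 RPKM. Of 54146 genes, 13940 were above 0 in both libraries and 17983 in at least 1 of them. A gene was taken as expressed at 1 RPKM or more in both libraries, which 7102 genes (13.1%) reached. A further 716 genes reached that level in only 1 library, 539 of them in replicate 1 and 177 in replicate 2. The median level of an expressed gene was 6.46 RPKM, 360 genes averaged at least 100 RPKM and 24 at least 1000 RPKM. Of the expressed genes 6733 were protein coding, and these held 97.8% of the summed RPKM. Another 137 were lincRNA genes, which held 1.16%.

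Few transcripts held much of the summed RPKM, to nearly the same degree in each library. The first 4 genes held 33.8% of the summed RPKM in replicate 1 and 33.3% in replicate 2. The first 10 held 41.5% and 40.8% (41.2% ± 0.47, SD, n = 2). The mean was 11.73% as a share of reads, without division by length, and 31.67% of RPKM with the hemoglobin genes left out. The first 100 genes held 59.6% and 59.8% of the summed RPKM, and the first 1000 held 84.5% and 84.9%. Each library's own list of its 30 most abundant genes shared 26 genes with the other's, and the lists of 100 shared 86. Within the 30 genes of highest mean the libraries were at most 1.46-fold apart, and 20 of the 30 were higher in replicate 1. Across the 7102 expressed genes, which share their libraries and are not independent replicates, the log2 levels correlated with Pearson's r = 0.984 and Spearman's rho = 0.972.

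**Figure D1:**
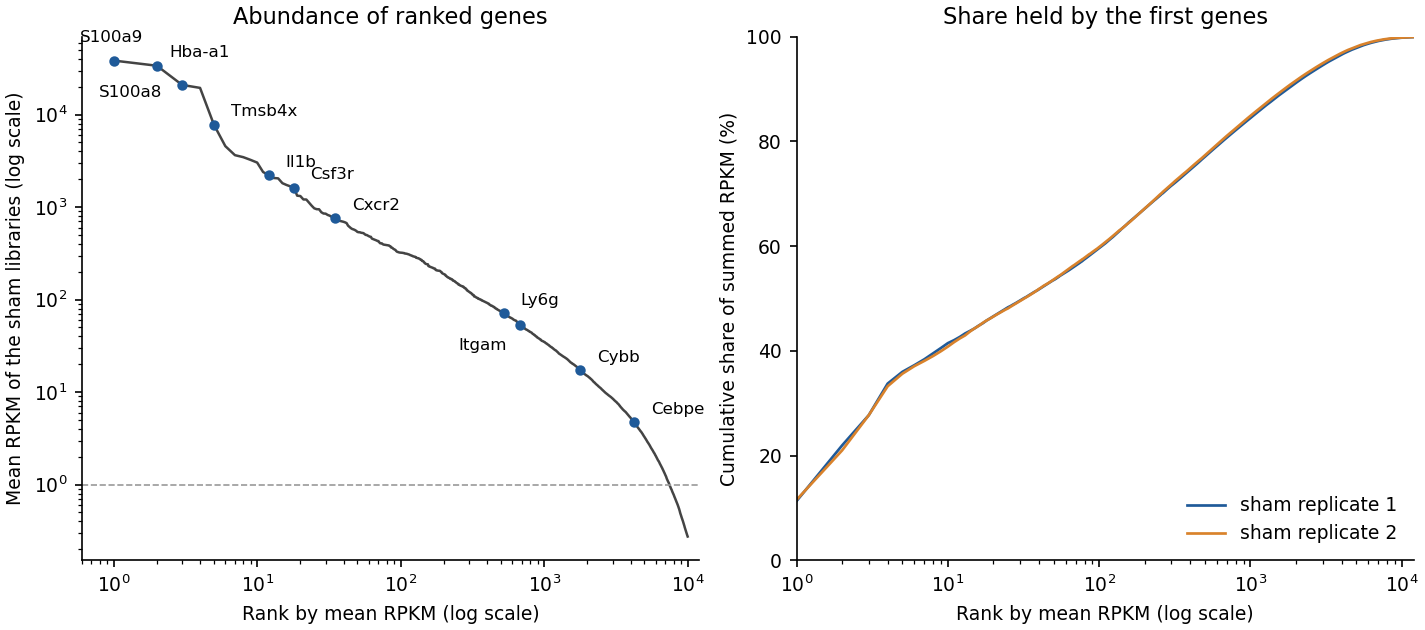
Left, mean RPKM of the sham libraries against the rank of the gene, both on log scales, with named genes as points and the 1 RPKM minimum as a dashed line. Right, the cumulative share of summed RPKM (%) against rank on a log scale, one line per library; the lines nearly coincide and pass 50% after 32 genes.

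S100a9 and S100a8 encode the subunits of calprotectin, the zinc- and calcium-binding protein that makes up much of the neutrophil cytosol. S100a9 was at 38864 RPKM in replicate 1 and 38018 RPKM in replicate 2 (38441 ± 599, SD, n = 2), which alone was 11.3% and 11.6% of the summed level. S100a8 was at 19794 and 22124 RPKM (20959 ± 1648, SD, n = 2). The partners thus lay within the first 3 places by mean, with S100a9 the higher of them in both libraries. S100a11, a relative found in many cell types, had rank 6 at 4366 and 4765 RPKM. S100a6 followed at 456 and 504 RPKM, and S100a10, the annexin A2 partner, at 45.6 and 16.8 RPKM. Of the 9 S100 genes in the list 7 were expressed, and together they held 18.5% and 19.9% of the summed RPKM.

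The other genes of the first 10 were hemoglobin, actin-regulating and ferritin genes. Hba-a1, an adult alpha globin, had rank 2 at 36475 and 31106 RPKM (33790 ± 3796, SD, n = 2), and Hbb-bs, an adult beta globin, rank 4 at 20734 and 18196 RPKM. Hbb-bs was above S100a8 in replicate 1 and below it in replicate 2, so the order of these neighbours did not hold across the libraries. Tmsb4x, which encodes the actin monomer-binding thymosin beta 4, had rank 5 at 7673 and 7858 RPKM. The ferritin chains followed, Ftl1 at 3939 and 3356 RPKM and Fth1 at 3866 and 3074 RPKM. Hbb-bt, another adult beta globin, was at 3489 and 2994 RPKM, and Actb, beta actin, closed the first 10 at 3185 and 2881 RPKM. Each of these genes other than Tmsb4x was higher in replicate 1.

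Ranks 11 to 20 mixed immune genes with genes of general function. B2m, the invariant chain of MHC class I, was at 1971 RPKM in replicate 1 and 2821 RPKM in replicate 2, and H2-D1, a classical class I heavy chain, at 1515 and 1844 RPKM. Il1b, the precursor of the inflammatory cytokine interleukin 1 beta, was at 2127 and 2334 RPKM, and so had rank 12 of all genes. Both class I genes and Il1b were higher in replicate 2. Retnlg, a resistin-like secreted protein of granulocytes, was at 1641 and 1990 RPKM. Lyz2, the myeloid lysozyme, was at 1872 and 1603 RPKM, and Csf3r, the receptor for the granulocyte growth factor G-CSF, at 1758 and 1491 RPKM. Ubb, a polyubiquitin gene, was at 2248 and 1885 RPKM, and Lst1, a leukocyte-specific membrane protein, at 1425 and 1237 RPKM. The nuclear noncoding RNA Malat1 was at 1667 and 2429 RPKM, 1.46-fold higher in replicate 2 and the widest gap among the first 30. Pfn1, the actin-binding profilin 1, was close to level at 1337 and 1299 RPKM.

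Ranks 21 to 30 held further transcripts linked to granulocyte function. Ifitm2, a membrane protein that restricts virus entry, was at 1235 and 1187 RPKM, and Tyrobp, the signalling adaptor of many activating receptors, at 1306 and 1113 RPKM. The chemokine gene Ccl6 was at 1136 and 1094 RPKM and Wfdc17, a whey acidic protein domain inhibitor, at 1160 and 911 RPKM. Lrg1, a secreted leucine-rich glycoprotein, was at 1133 and 808 RPKM. The Schlafen genes Slfn4 and Slfn2 were at 838 and 1062 RPKM and at 833 and 929 RPKM, both higher in replicate 2. Taldo1, the pentose phosphate enzyme transaldolase, was at 965 and 932 RPKM, and Hp, haptoglobin, which binds free hemoglobin, at 907 and 800.4 RPKM. Msrb1, a selenoprotein that repairs oxidised methionine, was nearly equal at 853 and 847 RPKM.

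The promoters of S100a9, S100a8 and Il1b are shown because these genes carried the highest calgranulin and cytokine levels in the libraries. Each window runs 5′ to 3′ on the gene's strand over 250 bases before and 10 after the RefSeq start (GRCm38.p6): chr3:90695712-90695971, minus strand, for S100a9, chr3:90668821-90669080, plus strand, for S100a8, and chr2:129371130-129371389, minus strand, for Il1b. Capitals mark the TATA motif TATAAA and matches to TTNNGNAA, a loose form of the motif of C/EBP factors, on either strand.
S100a9: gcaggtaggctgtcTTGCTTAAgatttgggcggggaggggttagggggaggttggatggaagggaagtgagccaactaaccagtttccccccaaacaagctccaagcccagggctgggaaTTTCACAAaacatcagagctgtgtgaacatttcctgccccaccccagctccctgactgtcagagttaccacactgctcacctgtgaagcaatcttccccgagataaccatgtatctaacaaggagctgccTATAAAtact
S100a8: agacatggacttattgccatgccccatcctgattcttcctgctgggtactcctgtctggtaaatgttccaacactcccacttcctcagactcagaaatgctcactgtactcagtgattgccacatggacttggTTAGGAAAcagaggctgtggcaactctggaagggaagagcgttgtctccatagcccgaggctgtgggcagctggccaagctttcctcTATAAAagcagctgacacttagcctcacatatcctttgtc
Il1b: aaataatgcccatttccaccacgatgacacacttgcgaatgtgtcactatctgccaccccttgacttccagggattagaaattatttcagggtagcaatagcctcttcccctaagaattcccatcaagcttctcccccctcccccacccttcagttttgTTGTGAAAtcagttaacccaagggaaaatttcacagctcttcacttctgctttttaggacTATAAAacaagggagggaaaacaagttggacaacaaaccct

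TATAAA began 30 bases before the annotated start of S100a8 and 31 bases before that of Il1b, and at the annotated start itself in the S100a9 window. The C/EBP pattern matched in the S100a9 window 236 and 130 bases before the start, and at a single place each for S100a8 (117 bases) and Il1b (91 bases). None of these printed matches overlapped another. Of the 100 most abundant genes 82 were matched to a RefSeq promoter, with 94 windows from 250 bases before to 50 after a start. TATAAA lay in 26 of the 94 windows (27.7%), against 6.88% of the 6979 windows of expressed genes and 13.6% of all 32851 windows. The GC box GGGCGG lay in 47.9% of the windows of abundant genes, 63.7% of those of expressed genes and 35.7% of all. CCAAT lay in 45.7%, 37.4% and 37.4%, the C/EBP pattern in 42.6%, 32.1% and 40.7%, and the ETS core GAGGAA in 23.4%, 27.8% and 28.3%. A match is a run of letters and does not show that a factor binds there.

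The surface proteins used for the sort were both expressed, at lower levels than S100a9, S100a8, S100a11 and S100a6. Ly6g, the mouse granulocyte antigen, was at 76.5 RPKM in replicate 1 and 67.2 RPKM in replicate 2 and ranked 523 by mean. Itgam, the CD11b chain of the integrin Mac-1, was at 57.1 and 49.9 RPKM and ranked 684. Cxcr2, the receptor for the neutrophil chemokines of the CXCL1 and CXCL2 type, was at 766 and 764 RPKM and ranked 35. All 4 marker genes S100a8, S100a9, Cxcr2 and Ly6g were thus expressed in both libraries.

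Chemoattractant receptors were expressed for 11 of the 14 genes listed. Below Cxcr2 came Ccr1, a receptor for inflammatory CC chemokines, at 515 and 593 RPKM, C5ar1, the complement C5a receptor, at 386 and 392 RPKM, and Fpr1, a formyl peptide receptor, at 155 and 178 RPKM. Ptafr, the receptor for platelet-activating factor, was at 116 and 119 RPKM. Cxcr4, which holds neutrophils in the marrow and marks aged cells, was far below Cxcr2 in both libraries at 27.7 and 37.9 RPKM. Adhesion genes were expressed for 15 of 15, led by Selplg, the selectin ligand PSGL-1, at 745 and 624 RPKM. Itgb2, the beta chain shared by the leukocyte integrins, was at 333 and 305 RPKM.

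Growth factor and cytokine receptors were expressed for 19 of 20. After Csf3r the highest were Csf2ra, a chain of the GM-CSF receptor, at 218 and 195 RPKM and Tnfrsf1a, a TNF receptor, at 152 and 166 RPKM. The interferon receptor chains were all present, with Ifnar2 at 92.6 and 88.3 RPKM, Ifnar1 at 23.8 and 27.5 RPKM, Ifngr1 at 90.9 and 81.0 RPKM and Ifngr2 at 60.4 and 62.1 RPKM. Il6st, the gp130 chain needed for interleukin 6 signalling, was at 0.151 and 0.0503 RPKM, while Il6ra was at 19.5 and 18.3 RPKM. Pattern recognition genes were expressed for 27 of 29, and after Tyrobp these were led by Clec7a, the beta-glucan receptor dectin-1, at 408 and 480.1 RPKM. The adaptor Myd88 was at 280 and 261 RPKM, Trem3 at 159 and 163 RPKM, and Tlr13, a sensor of bacterial ribosomal RNA, at 120.1 and 122 RPKM, the highest of the Toll-like receptors listed. Tlr9 was at 0 in both libraries, and Tlr3 was at 0 and 0.0134 RPKM.

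Fc receptor genes were expressed for 4 of 5, and activating and inhibitory immunoglobulin-like receptors were expressed too. Fcer1g, the common signalling chain of Fc receptors, was at 836 and 812 RPKM and Fcgr3 at 346 and 362 RPKM, whereas Fcgr1, the high-affinity receptor for IgG, was at 0.449 and 0.162 RPKM. The paired immunoglobulin-like receptors were expressed for 13 of 13, led by Lilr4b at 477 and 547 RPKM and Cd300lb at 337 and 305 RPKM. Pirb and other members of this list have close paralogs, so their split is uncertain.

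As a list, azurophil granule genes were far below specific granule and gelatinase granule genes in summed level. Of 6 azurophil genes, which are transcribed in promyelocytes, 4 were at 0 in both libraries: Elane, neutrophil elastase, Mpo, myeloperoxidase, Ctsg, cathepsin G, and Ms4a3. Prtn3, proteinase 3, was at 0.261 and 0.323 RPKM and Prss57 at 1.61 and 1.01 RPKM. Specific granule genes were expressed for 11 of 11 and held 1.22% and 1.05% of the summed RPKM. Below Lyz2 and Hp stood Ngp, a cathelin-like granule protein, at 522 and 350.0 RPKM, Mmp8, neutrophil collagenase, at 275 and 290 RPKM, and Lcn2, the siderophore-binding lipocalin 2, at 202 and 156 RPKM. Camp, the cathelicidin precursor, was at 166 and 104 RPKM and Ltf, lactoferrin, at 135 and 80.9 RPKM. Of the 10 members that averaged at least 5 RPKM, 8 were higher in replicate 1, as were 63.1% of all genes at that level. Gelatinase granule and citrullination genes were expressed for 5 of 6, and after Retnlg the highest was Mmp9, gelatinase B, at 612 and 519 RPKM. Padi4, which citrullinates histones in extracellular trap formation, was at 25.7 and 22.4 RPKM.

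Protease inhibitors were expressed for 13 of 15 and held 0.933% and 0.914% of the summed RPKM. Stfa2l1, a stefin A relative, was at 622 and 721 RPKM, Slpi, an inhibitor of neutrophil elastase, at 312 and 283 RPKM, and Cst3, cystatin C, at 276 and 246 RPKM. The stefin A genes are close copies, and reads may have been shared among them. Subunits and partners of the NADPH oxidase were expressed for 9 of 9. The GTPase Rac2 was at 494 and 402 RPKM, the membrane subunit Cyba at 366 and 296 RPKM, and the cytosolic subunits Ncf4 and Ncf1 were at 313 and 273 and at 115 and 118 RPKM. Cybb, the catalytic gp91phox chain, was at 17.7 and 17.0 RPKM. Of the lipid mediator genes 9 of 13 were expressed, with Pla2g7 at 591 and 670.1 RPKM and Alox5ap, the activating protein of 5-lipoxygenase, at 336 and 308 RPKM.

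Cytokine and chemokine genes were expressed for 15 of 24, and most were low beside Il1b and Ccl6. Il1rn, the antagonist of the interleukin 1 receptor, was at 133 and 169 RPKM, Tnfsf14 at 76.7 and 71.4 RPKM and Tgfb1 at 47.4 and 44.5 RPKM. Tnf was at 9.10 and 11.5 RPKM. Il10, Il6, Il1a and Ccl2 were at 0 in both libraries, and Cxcl1 was at 0 and 0.147 RPKM. Cxcl10, an interferon-induced chemokine, was at 0.321 RPKM in replicate 1 and 6.95 RPKM in replicate 2.

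Of 24 granulocyte transcription factors 18 were expressed. Mxd1, a MAX partner that opposes MYC, led at 408 and 547 RPKM, followed by Klf2 at 330.1 and 364 RPKM, the myeloid master regulator Spi1 (PU.1) at 353 and 303 RPKM, Cebpb at 193 and 257 RPKM and Cebpd at 162 and 170.5 RPKM. Factors of earlier stages were low, with Cebpe at 5.15 and 4.28 RPKM, Gfi1 at 0.223 and 0.657 RPKM, Myb at 0.274 and 0.198 RPKM and Myc at 0.451 and 0.334 RPKM. Immediate early genes were expressed for 19 of 26, led by the AP-1 subunit Junb at 847 and 687 RPKM, the mRNA decay factor Zfp36 at 613 and 435 RPKM and the MAP kinase phosphatase Dusp1 at 379.7 and 500.1 RPKM. Among survival genes 17 of 22 were expressed, and Mcl1, the BCL2 relative on which neutrophil survival depends, stood far above the rest at 685 and 891 RPKM. Bcl2 itself was at 0.465 and 0.259 RPKM.

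Interferon-stimulated genes were abundant in both libraries. Of 36 genes of the type I interferon list 33 were expressed, and they held 1.63% of the summed RPKM in replicate 1 and 2.04% in replicate 2. Next to Ifitm2 and Slfn4 stood Slfn1 at 706 and 776 RPKM, Ifitm3 at 590 and 812 RPKM and Ifitm1 at 355 and 270.1 RPKM. The ubiquitin-like modifier Isg15 was at 183 and 251 RPKM and Irf7, the regulator of interferon alpha genes, at 140.1 and 189 RPKM. The resistance genes Mx1 and Mx2 were at 0.239 and 0.0923 RPKM and at 0.0714 and 0.348 RPKM. All 17 MHC class I genes in the table were expressed and held 1.26% and 1.81%.

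Genes of general cell function separated into high and low classes. The actin cytoskeleton list was expressed for 24 of 24 and held 5.17% and 5.27% of the summed RPKM, with Actg1 at 704.5 and 684 RPKM and Coro1a, coronin 1A, at 679 and 543 RPKM below Tmsb4x, Actb and Pfn1. Iron genes held 2.54% and 2.20%, mostly from the ferritin chains, while Tfrc, the transferrin receptor, was at 0.9498 and 0.655 RPKM. Antioxidant genes were expressed for 19 of 19 and glycolysis and hypoxia genes for 23 of 24, led by Pkm, pyruvate kinase, at 294 and 259.7 RPKM. Cytosolic ribosomal protein genes were expressed for 72 of 85 but held only 0.424% and 0.374% in all, led by Rps9 at 230.3 and 201 RPKM. Rps12, from the same particle, was at 0.287 and 0.310 RPKM. These genes have many processed copies in the genome, and how reads with several matches were assigned is not known here, so these levels are uncertain. The 13 mitochondrially encoded protein genes held 0.260% and 0.213%, and the nuclear respiratory chain genes, expressed for 66 of 79, held 0.486% and 0.465%. Histone genes were expressed for 29 of 102, headed by the replication-independent H3f3b at 327 and 311 RPKM and H3f3a at 304 and 344 RPKM.

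Most proliferation and clock genes were below 1 RPKM. Of 19 cell cycle genes 5 were expressed, and Hmgb2, a chromatin protein, supplied nearly all of their level at 247 and 275 RPKM. The proliferation antigen Mki67 was at 1.33 RPKM in both libraries, Top2a at 0.0358 and 0.0387 RPKM, and Tyms and Ccnb1 were at 0. Of 15 circadian clock genes 3 were expressed, Cry1 at 16.4 and 14.2 RPKM, Bhlhe40 at 10.04 and 8.43 RPKM and Per2 at 1.72 and 1.77 RPKM. Arntl, the core activator BMAL1, was at 0.210 and 0.170 RPKM, and Dbp, a common readout of clock phase, at 0.367 and 0.350 RPKM.

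**Figure D2:**
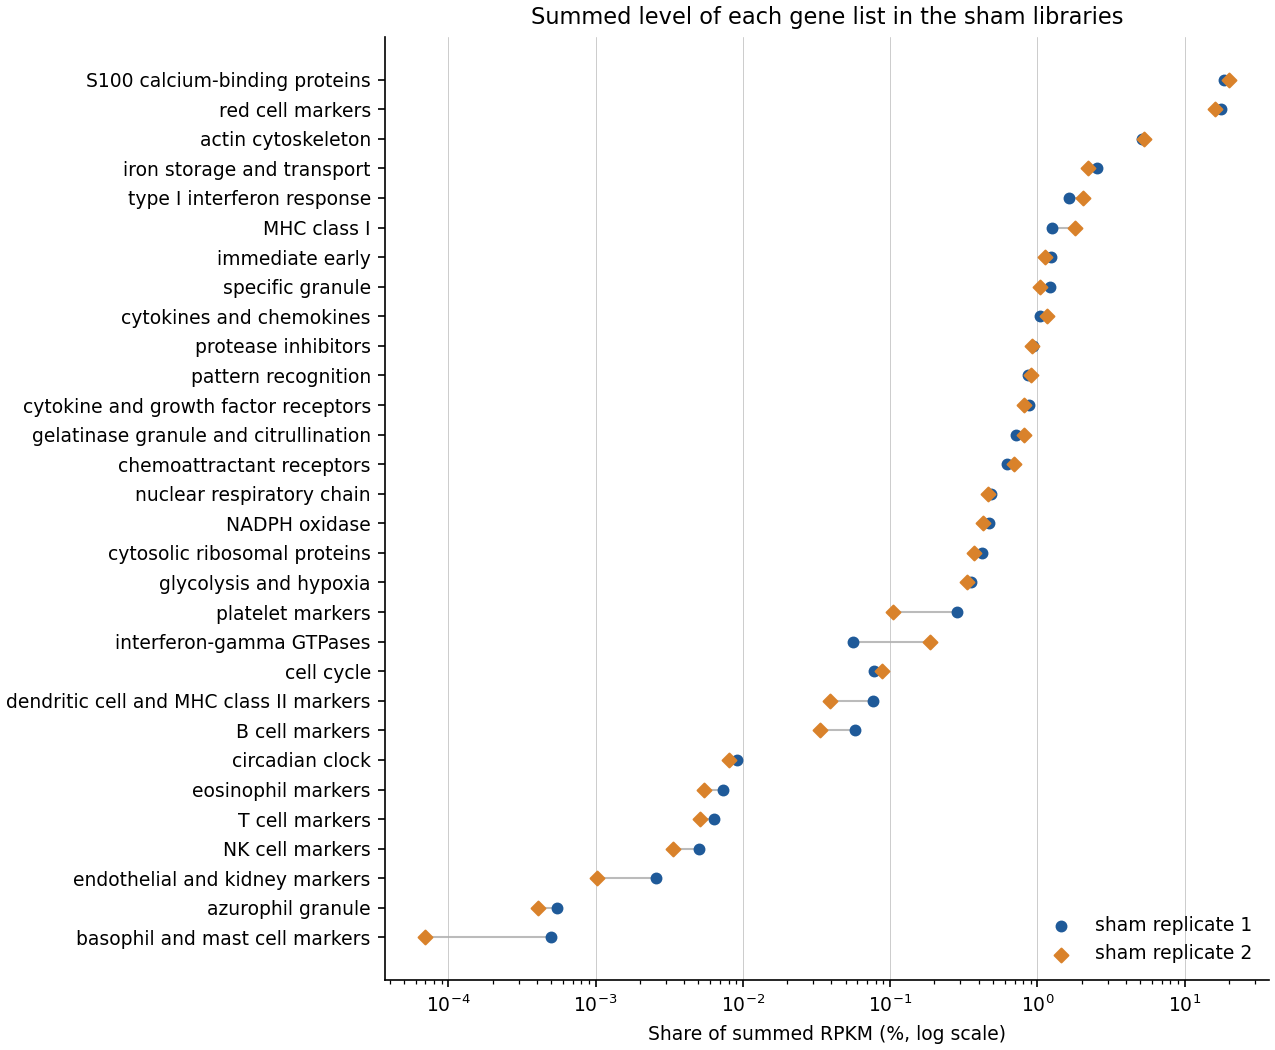
Share of summed RPKM (%, log scale) held by each gene list in sham replicate 1 (circles) and replicate 2 (diamonds). S100 genes and red cell markers lie between 16% and 19.9%, azurophil granule and basophil genes under 0.001%; the platelet and interferon-gamma lists show wide gaps in opposite directions.

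Markers of other cells were read from 10 lists. Red cell markers were expressed for 13 of 20 and held 17.8% and 16% of the summed RPKM, nearly all of it from 4 hemoglobin genes, which held 17.7% and 15.9%. By reads, without division by length, the hemoglobins took 4.8% and 4.14% of the library. Alas2, which starts erythroid heme production, was at 346 and 274 RPKM. The membrane gene Slc4a1 (band 3) was at 8.55 and 8.02 RPKM, and Klf1, the erythroid transcription factor, at 0.0422 and 0.0456 RPKM. Hba-a2 was at 29.5 and 42.0 RPKM, 945-fold below Hba-a1 by mean, though these copies encode nearly identical transcripts, so how the reads were assigned between them is uncertain. In such bulk RNA, fewer cells of a type and less RNA per cell cannot be told apart.

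Platelet markers were expressed for 16 of 16 and held 0.286% of the summed RPKM in replicate 1 and 0.105% in replicate 2. B cell markers were expressed for 11 of 15 and held 0.0574% and 0.0333%, and dendritic cell and MHC class II markers for 6 of 13, with 0.0760% and 0.0391%. Of 20 monocyte and macrophage markers 11 were expressed. Without Lyz2, which neutrophils also make, their summed level was 318 and 314 RPKM. The monocyte genes Ccr2 and Cx3cr1 were at 1.52 and 0.599 RPKM and at 1.204 and 0.403 RPKM.

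Most T, NK, eosinophil, basophil and tissue markers were below 1 RPKM in both libraries. Of 15 T cell markers 2 were expressed, Cd3d at 15.0 and 14.0 RPKM and Trdc at 5.01 and 1.84 RPKM, while Cd4, Cd8a and Il7r were at 0 in both libraries. NK markers were expressed for 4 of 12, led by Gzma at 6.93 and 4.58 RPKM. Of 9 eosinophil markers 3 were expressed, with Siglecf at 11.8 and 11.4 RPKM, and the granule genes Epx, Prg2, Ear1 and Ear6 were at 0. None of 9 basophil and mast cell markers and 1 of 12 endothelial and kidney markers, Pecam1, was expressed. The Y-linked genes Eif2s3y and Ddx3y were at 32.6 and 34.2 RPKM and at 10.5 and 13.1 RPKM, and Xist was at 0 and 0.00390 RPKM.

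The libraries were then set against each other over the 4113 genes with a mean of at least 5 RPKM, on the scale log2(RPKM + 1). The median absolute difference was 0.178, where counting error alone would give 0.041, and it was about the same at every level from 1 to over 1000 RPKM. The 95% counting interval of the ratio excluded equality for 63.8% of these genes. Intervals are exact Clopper-Pearson intervals of the recovered reads. They cover counting error only, since reads of an amplified library without molecular identifiers are not independent molecules. Of these genes 63.1% were higher in replicate 1. The median signed difference was 0.08, in favour of replicate 1, and it was 0.125 over the 823 shortest of these genes and 0.014 over the 822 longest.

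**Figure D3:**
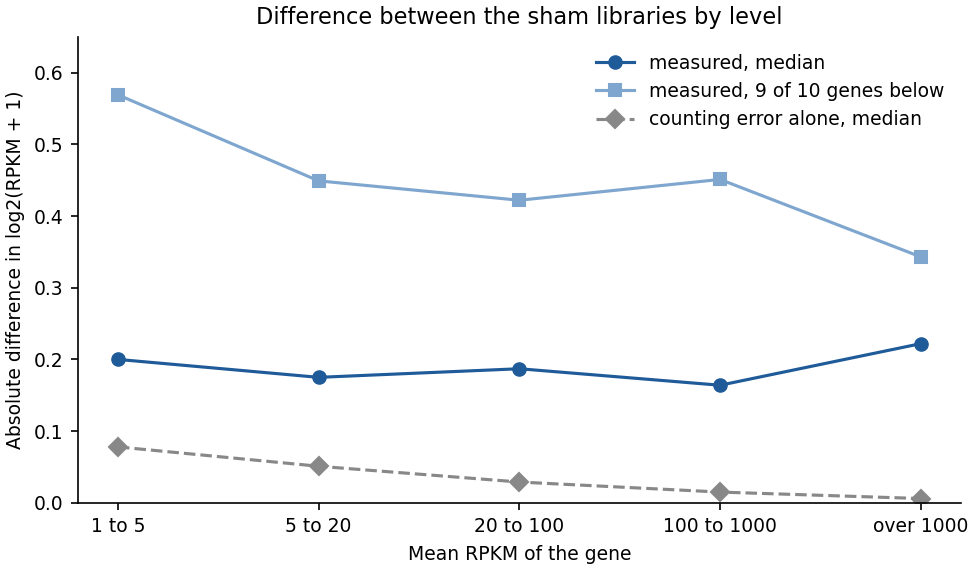
Absolute difference between the sham libraries in log2(RPKM + 1) against the mean RPKM of the gene, as the median, the value that 9 of 10 genes stay below and the median given by counting error alone. The measured median stays between 0.164 and 0.222 while counting error drops from 0.078 to 0.006.

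At a 2-fold limit on this scale, 53 genes (1.29% of the 4113) were higher in replicate 1 and 37 (0.900%) in replicate 2, 90 (2.19%) in all. Platelet, B cell and MHC class II markers made up 18 of the 53, and 29 were in no list. The platelet, B cell, and dendritic cell and MHC class II lists had 12, 7 and 6 members among the 4113. Members of the interferon and MHC class I lists made up 16 of the 37, and 15 were in no list. The type I interferon, interferon-gamma and MHC class I lists had 32, 9 and 16 members among the 4113. The lists are short, so genes of related function, such as H2-DMb2 and Gbp2b, were in no list. The nearest genes inside the limit were Ormdl3 at 15.4 and 7.19 RPKM on the replicate 1 side and Psmb9 at 27.5 and 56.5 RPKM on the replicate 2 side. Iglc2 at 27.9 and 13.7 RPKM and Tsc22d3 at 70.2 and 139.6 RPKM lay just outside.

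Platelet markers accounted for 11 of the 53 genes. Of the 16 markers 12 averaged at least 5 RPKM, and all 12 were higher in replicate 1, by a median of 1.71 in log2, against 0.08 for all genes. Pf4, the platelet chemokine platelet factor 4, was at 404 RPKM in replicate 1 and 133 RPKM in replicate 2, a ratio of 3.04 (95% counting interval 2.86 to 3.23). Ppbp, another alpha granule chemokine, was at 116.5 and 41.0 RPKM, and Nrgn, a calmodulin-binding protein abundant in platelets, at 221 and 68.3 RPKM. Itga2b, the alpha chain of the fibrinogen receptor, was at 31.1 and 7.72 RPKM. The chains of the von Willebrand factor receptor were higher too, Gp9 at 30.4 and 6.97 RPKM, Gp1bb at 11.9 and 2.44 RPKM and Gp5 at 14.8 and 3.72 RPKM. Tubb1, the beta tubulin of the platelet marginal band, was at 21.6 and 5.27 RPKM, and Treml1, a receptor of alpha granules, at 15.2 and 3.24 RPKM. Rgs18, a regulator of G protein signalling, was the exception within the limit at 69.0 and 52.3 RPKM.

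Of the other genes among the 12 largest differences in this direction, Egr1, an immediate early transcription factor, came first at 11.7 RPKM in replicate 1 and 0.934 RPKM in replicate 2, a ratio of 12.5 (95% counting interval 9.58 to 16.5). Fos and Jun, the AP-1 subunits, also passed the limit at 251 and 123 RPKM and at 15.2 and 5.76 RPKM. Over the 20 immediate early genes of at least 5 RPKM the median difference was -0.03, with 9 higher in replicate 1. A further gene of this list, Tnfaip3, an inhibitor of NF-kB signalling, passed the limit in the opposite direction at 5.71 and 12.8 RPKM. S100a1 was at 24.6 and 5.13 RPKM, and Myl9, a regulatory myosin light chain, at 76.4 and 18.5 RPKM. Clu, the secreted chaperone clusterin, was at 31.9 and 8.88 RPKM. The paralogs Ctla2a and Ctla2b, which resemble cathepsin propeptides, were at 420.2 and 128 RPKM and at 23.7 and 6.32 RPKM.

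Members of the B cell and MHC class II lists supplied 7 more. Cd79a and Cd79b, the signalling chains of the B cell receptor, were at 27.2 and 11.9 RPKM and at 21.2 and 9.03 RPKM. Every one of the 7 B cell markers of at least 5 RPKM was higher in replicate 1, with a median of 0.97. The invariant chain Cd74 was at 137 and 60.7 RPKM, and the class II chains H2-Aa, H2-Eb1 and H2-Ab1 were at 34.4 and 13.7, 33.2 and 13.6, and 31.5 and 13.01 RPKM. Of the 6 dendritic cell and MHC class II markers of at least 5 RPKM, 5 were higher in replicate 1, with a median of 1.19. Itgax in this list differed less, at 16.3 and 13.6 RPKM. Bst2, which is also in the type I interferon list, went the other way at 6.65 and 12.8 RPKM. The 24 expressed immunoglobulin V genes belonged to a class of 218 whose summed level was 178 RPKM in replicate 1 and 92.6 RPKM in replicate 2. Red cell markers differed less, by a median of 0.13 with 8 of 10 higher in replicate 1, and this was 0.00 with 4 of 10 after quantile normalization. Whether carried-over cells or their RNA had a part in these differences was not tested.

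**Figure D4:**
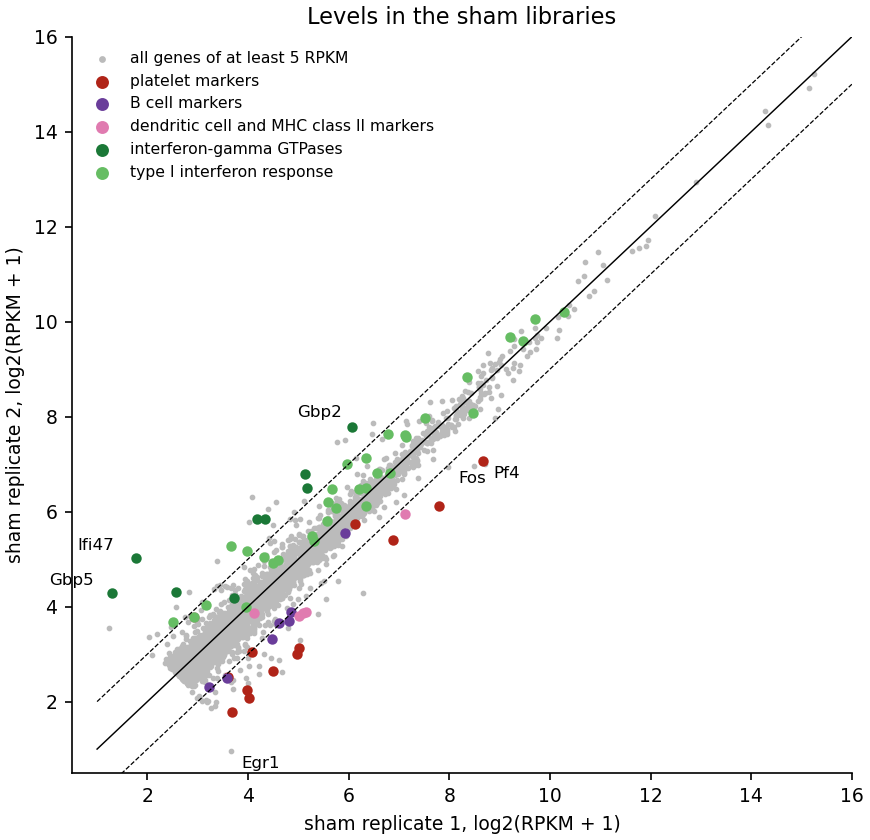
Levels of the 4113 genes in sham replicate 2 against replicate 1, both as log2(RPKM + 1), with the line of equality, dashed lines at 2-fold, and list members in colour. Platelet markers (red) lie below the diagonal and interferon-gamma GTPases (dark green) above it.

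In the opposite direction, 12 of the 37 genes higher in replicate 2 belonged to the interferon lists, 8 of them to the interferon-gamma GTPases. These GTPases, the GBP and IRG families, attack the membranes around intracellular microbes and are induced above all by interferon gamma. Of 15 listed 9 averaged at least 5 RPKM, and all 9 were higher in replicate 2, by a median of 1.66 in log2, that is a signed difference of -1.66. The list held 0.0562% of the summed RPKM in replicate 1 and 0.188% in replicate 2. Ifi47, an IRG GTPase, was at 2.40 RPKM in replicate 1 and 31.5 RPKM in replicate 2, a ratio of 13.1 (95% counting interval 10.6 to 16.4). Gbp5, which promotes inflammasome assembly, was at 1.45 and 18.5 RPKM, a ratio of 12.8 (10.8 to 15.2). The more abundant Gbp2 was at 65.7 and 218 RPKM, a ratio of 3.32 (3.17 to 3.47). Gbp2b, Gbp3 and Gbp7 were at 53.4 and 177, 4.96 and 18.9, and 34.0 and 109.6 RPKM, and the IRG gene Igtp was at 17.1 and 56.1 RPKM. GBP genes lie in clusters of close copies, so their individual levels are less certain than their sum.

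Further genes higher in replicate 2 came from other lists or from none. Nlrc5, the transactivator of MHC class I genes, was at 1.35 and 10.7 RPKM, a ratio of 7.93 (6.78 to 9.34), and Cd274, which encodes the checkpoint ligand PD-L1, at 15.9 and 78.3 RPKM, a ratio of 4.93 (4.58 to 5.30). Irf1, an early interferon-induced transcription factor, was at 86.7 and 198 RPKM. Zbp1, a nucleic acid sensor, was at 15.3 and 54.3 RPKM, Acod1, the enzyme that makes itaconate, at 22.4 and 72.2 RPKM, and the atypical chemoattractant receptor Ccrl2 at 19.9 and 65.8 RPKM. All 16 MHC class I genes of at least 5 RPKM were higher in replicate 2, by a median of 0.57 in log2, or -0.57 as signed, and 4 of them passed the 2-fold limit, among them Tap1, the peptide transporter chain, at 29.1 and 62.7 RPKM. Genes of the type I interferon list differed less, with 28 of 32 higher in replicate 2, a median of -0.42 and 4 genes past the limit, among them Ifit2 at 11.7 and 37.7 RPKM. No gene of the interferon lists was among the 53 higher in replicate 1. Only 1.29% of all 4113 genes were called in that direction, so lists of this size would hold few or none at the same share. The libraries differed in platelet, B cell and class II markers in the other direction at the same time, and the part of any of these in the interferon difference was not tested.

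Promoters of interferon-gamma GTPases are shown because Ifi47 of this family had the widest difference of a single gene between the libraries. Windows are built as above on the plus strand: chr3:142620413-142620672 for Gbp2, chr3:142530086-142530345 for Gbp7, chr11:58199306-58199565 for Igtp and chr11:49076337-49076596 for Ifi47. Capitals mark a core of the interferon-stimulated response element (TTTC, any 2 bases, TTTC) and the site pattern of STAT dimers (TTCNNNGAA) on either strand; both patterns were added after the differing genes were known.
Gbp2: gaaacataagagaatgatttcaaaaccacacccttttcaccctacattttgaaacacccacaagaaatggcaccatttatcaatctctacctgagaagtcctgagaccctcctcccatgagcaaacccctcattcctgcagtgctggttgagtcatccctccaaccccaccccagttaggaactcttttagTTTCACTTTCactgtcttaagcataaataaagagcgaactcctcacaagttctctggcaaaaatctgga
Gbp7: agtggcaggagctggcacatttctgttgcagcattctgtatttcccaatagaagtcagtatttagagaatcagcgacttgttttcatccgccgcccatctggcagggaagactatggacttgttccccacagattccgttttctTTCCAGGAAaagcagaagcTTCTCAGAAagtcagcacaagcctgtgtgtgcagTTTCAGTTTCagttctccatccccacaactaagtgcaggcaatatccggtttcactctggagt
Igtp: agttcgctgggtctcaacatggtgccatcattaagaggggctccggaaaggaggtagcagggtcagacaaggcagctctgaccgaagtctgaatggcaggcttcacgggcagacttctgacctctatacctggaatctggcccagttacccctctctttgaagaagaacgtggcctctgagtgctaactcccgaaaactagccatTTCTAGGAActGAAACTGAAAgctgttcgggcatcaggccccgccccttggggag
Ifi47: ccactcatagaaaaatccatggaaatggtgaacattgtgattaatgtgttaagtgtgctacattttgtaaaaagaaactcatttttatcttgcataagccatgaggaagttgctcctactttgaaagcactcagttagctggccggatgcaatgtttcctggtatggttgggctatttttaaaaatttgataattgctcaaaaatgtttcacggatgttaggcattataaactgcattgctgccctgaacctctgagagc

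The response element pattern began 59 bases before the start of Gbp2, 53 before that of Gbp7 and 34 before that of Igtp, where it lay on the opposite strand. Gbp7 held the STAT pattern at 106 and 87 bases and Igtp at 45 bases, with no overlap between matches. The Ifi47 window held neither pattern, which says only that these letters are not in it, although Ifi47 had the widest gap between the libraries. Of the 37 genes higher in replicate 2, 30 were matched, and 12 of their 37 windows (32.4%) held the response element pattern, against 3.44% of all 32851 windows and 2.08% of the windows of genes higher in replicate 1. In the interferon-gamma list 9 of 11 windows (81.8%) held it, and in the type I list 54.1% did. The STAT pattern lay in 6 of the 11 (54.5%), in 16.2% of windows of the genes higher in replicate 2 and in 8.30% of all. Many interferon-induced genes are known for such elements, so these shares describe the lists and are not independent of how the lists were made.

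**Figure D5:**
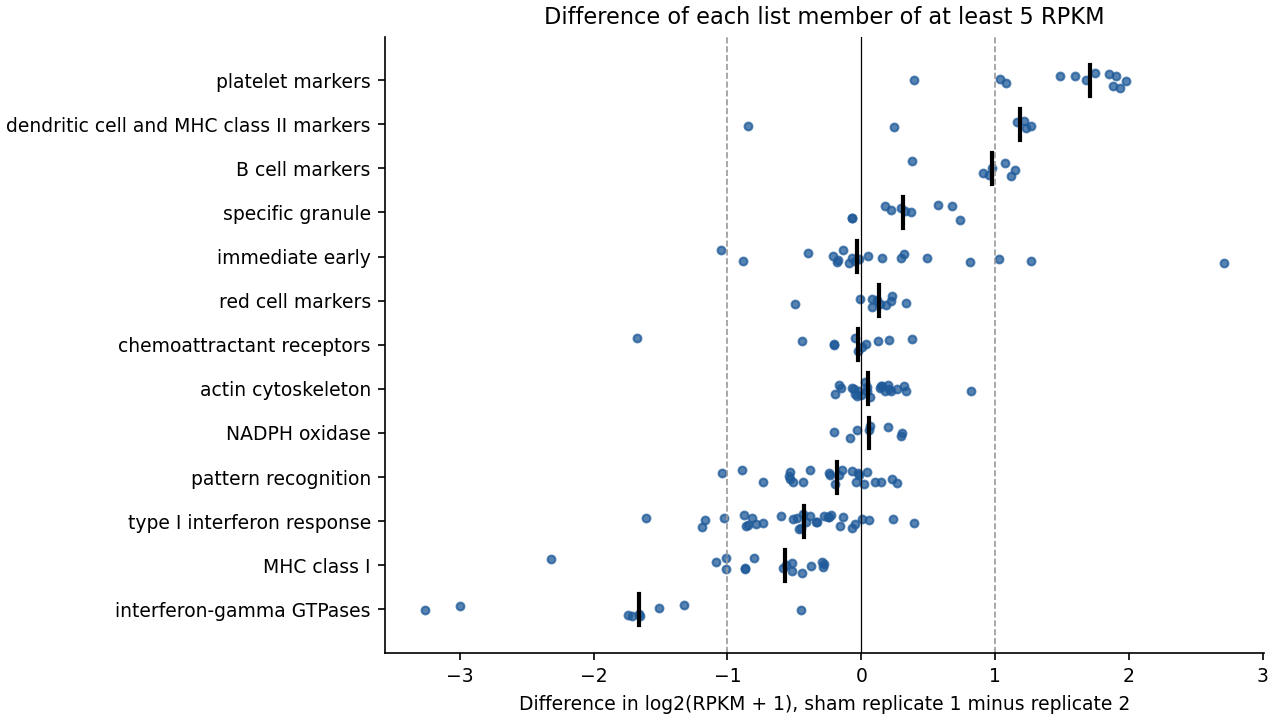
Difference in log2(RPKM + 1), sham replicate 1 minus replicate 2, of each list member of at least 5 RPKM, with the list median as a black bar and 2-fold as dashed lines. The platelet median is 1.71 and the interferon-gamma GTPase median -1.66, while actin and oxidase genes lie near 0.

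Core neutrophil functions differed little between the libraries beside these groups. No member of the specific granule, gelatinase granule, protease inhibitor, adhesion, cytokine receptor or NADPH oxidase lists passed the 2-fold limit. The medians were 0.32 for specific granule genes, 0.06 for oxidase genes and -0.02 for chemoattractant receptors, of which Ccrl2 alone passed. Cytosolic ribosomal protein genes were higher in replicate 1 for 46 of 51, with a median of 0.28 (41 of 51 and 0.20 after centring on the median of all genes), and mitochondrially encoded genes for 10 of 11, with a median of 0.34 (10 of 11 and 0.26 after centring). The actin genes had a median of 0.05, which turned to -0.03 when differences were centred on the median of all genes, and proteasome genes went from 0.05 to -0.03.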

How the data were processed

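RNA of sorted blood neutrophils was measured, and 2 sham libraries of the 10 in the series are used. Per the labels' protocols, RNeasy total RNA was turned into cDNA with a SMART-Seq v4 low-input kit, and Ion Xpress Plus reagents served for fragmentation libraries. The extraction text names cultured cells, whereas the other labels name cells sorted from blood. What the authors deposited are RPKM values for 54146 genes, on build mm10 according to the submitters' processing notes. Not given in the sources used here are aligner, counting tool, handling of multiply matching reads and use of strand; close paralogs and overlapping antisense genes are therefore uncertain.

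Reads were recovered from RPKM steps with exon lengths of the GENCODE M21 annotation, release number 21, of the same build. It held 54079 of the genes (99.9%), and 97.7% had the same start and end. With a tolerance of 0.02 reads, 85.0% and 84.6% of values came out whole, and reads in genes made up 85.3% and 83.1% of the recovered totals of 15490915 and 14319998. Length scaling raises short transcripts, such as hemoglobin and S100 genes, relative to their share of reads. Replicates were compared over 11696 genes. The median chi-square was 2.88, against 0.455 for counting error alone, so they were kept as 2 libraries.

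Expressed means at least 1 RPKM in both libraries. Differences use log2(RPKM + 1), which understates folds of low genes, for genes with a mean of at least 5 RPKM, with a limit of 2-fold. Ratios carry 95% Clopper-Pearson intervals. No count model was run, since no groups are compared. Named genes are the 30 of highest mean, the 12 of largest difference in each direction without predicted genes, and the 5 highest of each list with members that define a cell type or stage. A few members covered by the rule are not reported here; counts include them. Further named genes were picked with their values known. The gene lists and the choice of libraries were made with earlier results of these data known. RefSeq promoters (GRCm38.p6) were searched on both strands. Scripts ran in Python 3.11.15 with numpy 2.4.6, pandas 2.3.3, scipy 1.17.1 and matplotlib 3.10.9 and were tested on simulated data. Alternatives were other minimum levels, pseudocounts, scalings, read shares and each library alone.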

Additional observations from a re-analysis of the deposited data

How the results depend on the processing

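No paired analysis was possible because the libraries form a single group and no groups are compared. Each library alone gave 7279 to 7641 expressed genes, against 7102 in both, a share of the first 10 genes of 40.82% to 41.48% and a hemoglobin share of 15.90% to 17.69%. A minimum of 5 RPKM left 3895 expressed genes. As a share of reads, without division by length, the first 10 genes held 11.73% in place of 41.15% and hemoglobin held 4.47% in place of 16.80%. With hemoglobin left out, the first 10 held 31.67%.

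Of genes at least 2-fold higher in replicate 1, the main count was 53. It was 30 with a pseudocount of 5, 15 at a mean of at least 20 RPKM, 114 at a mean of at least 1 RPKM and 127 with no filter. For replicate 2 the main count of 37 went to 24, 21 and 56 with a pseudocount of 5, a mean of at least 20 RPKM and no filter. With no filter the median absolute difference was 0.108 in place of 0.178. The 26 other values stayed within 1.5 times the main count or within the spread (SD) between the libraries. For the 2 shares, each library alone always lies within that spread of their mean, so these values could not have come out otherwise. A counting interval wholly beyond 2-fold was found for 41 and 30 genes. Below about 0.2 RPKM in a 1 kb gene, presence could not be told from absence at this depth.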

Other observations

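Several noncoding genes besides Malat1 were abundant in both sham libraries. Neat1, the scaffold RNA of nuclear paraspeckles, was at 392 and 329 RPKM. The antisense gene F630028O10Rik was at 142 RPKM in replicate 1 and 229 RPKM in replicate 2, and the lincRNA gene Gm26809 was nearly level at 140.4 and 133 RPKM. Because the use of strand in counting is not given in the sources used here, reads of an antisense gene and of its sense partner cannot be told apart. These genes, like those below, were picked with their values known.

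Plac8, a cysteine-rich protein gene of myeloid cells, was in no list and was at 88.2 RPKM in replicate 1 and 231 RPKM in replicate 2, with 2175 and 5263 recovered reads. Npy, the neuropeptide Y gene, also in no list, was at 41.2 and 13.3 RPKM. Apoe, apolipoprotein E, was at 54.2 and 22.2 RPKM. Of the 53 genes higher in replicate 1, 29 were in no list, and of the 37 higher in replicate 2, 15 were.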
